A study of Mus musculus with 2 samples.

Results

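The 6 genes described here, Cd74, H2-Aa, H2-Ab1, H2-Eb1, H2-DMa and Ciita, encode parts of the major histocompatibility complex (MHC) class II pathway, and they were followed in the cells of mouse mammary tumors that are not immune cells. They were found by their symbols among the 32285 gene IDs of the deposited matrices, and all 6 were present in both. The genes were picked because earlier results on the same libraries had shown them higher in the Dll1+ tumor, so their ratios between the libraries are a description and carry no test.

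The series holds 1 library of a Dll1+ and 1 library of a Dll1- mouse mammary tumor, both untreated and both made of live CD45- cells obtained by flow sorting. The protein Dll1 activates Notch receptors on neighbouring cells, and CD45, encoded by Ptprc, is a surface protein of leukocytes, which the sort was set to remove. Before sorting, cells were also stained for CD31, a marker of endothelium, and for Ter119, a marker of erythroid cells. How the tumors came to be Dll1+ or Dll1-, and the strain and age of the mice, were not stated in the texts used here, and with 1 tumor per group every interval below is a 95% interval for counting error only.

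MHC class II molecules are pairs of an alpha and a beta chain that carry peptides from endosomes to the cell surface, where CD4+ T cells read them. Dendritic cells, macrophages and B cells make them all the time, and many epithelial and endothelial cells make them when interferon-gamma reaches them. The interferon signal induces Ciita, a coactivator that does not bind DNA itself and that works at the promoters of class II genes through the RFX, NF-Y and CREB factors.

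In role, H2-Aa and H2-Ab1 encode the alpha and beta chains of the I-A molecule, and H2-Eb1 encodes the beta chain of I-E. H2-Ea, listed for the alpha chain of I-E, was not found as a single entry under that symbol in the matrices. The counts of H2-Eb1 therefore do not show whether a whole I-E molecule was made. Cd74 encodes the invariant chain, which fills the peptide groove while the pair travels to the endosome. H2-DMa encodes a chain of H2-DM, which removes the last fragment of the invariant chain and edits the peptides. In the mm10 annotation of GENCODE M21, H2-Ab1 lies on chromosome 17 at 34257689 to 34269419 on the plus strand, H2-Aa at 34282744 to 34287823 on the minus strand, H2-Eb1 at 34305867 to 34316674 on the plus strand and H2-DMa at 34119541 to 34139101 on the plus strand. Ciita lies on chromosome 16 at 10480059 to 10528418 on the plus strand. H2-DMa shares its span with Brd2 on the other strand, Ciita with Dexi and H2-Eb1 with Gm20513. The sources used here do not state whether strand was used in counting, so a part of the reads of these 3 members could belong to the antisense neighbour.

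The promoters of H2-Eb1 and H2-Aa are printed because Ciita acts through the X and Y boxes found just before the start of class II genes. Each is the stretch of 150 bases before the transcription start, from RefSeq on GRCm38.p6, with the matched letters in capitals.
H2-Eb1, chr17:34305717-34305866, plus strand: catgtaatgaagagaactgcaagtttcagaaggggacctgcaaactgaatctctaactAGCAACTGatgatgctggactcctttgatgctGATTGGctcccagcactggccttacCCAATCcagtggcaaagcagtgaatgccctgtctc
H2-Aa, chr17:34287824-34287973, minus strand: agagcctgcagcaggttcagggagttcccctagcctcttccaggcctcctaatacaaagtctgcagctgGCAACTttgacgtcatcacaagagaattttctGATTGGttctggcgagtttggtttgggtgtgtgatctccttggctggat

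Both strands were searched for AGNAACNG, standing for the X box, and for GATTGG, the Y box that NF-Y binds. In H2-Eb1 an X box began 92 bases and a Y box 60 bases before the start, and the letters CCAATC are a Y box read on the other strand. In H2-Aa a Y box began 49 bases before the start, and the letters GCAACT, a search added after the sequences had been seen, began 81 bases before it. Of 32817 promoters of 300 bases, 17.4% held the X box letters, 16.1% the Y box letters and 10.9% GCAACT. An X box followed by a Y box 15 to 40 bases further on the same strand occurred in 0.140%, and GCAACT followed by a Y box at that distance in 0.0945%. Neither 150-base stretch before the 2 listed starts of H2-DMa held any of these letters, and a Y box began 199 bases before the second, within the 300-base window. These stretches, ending at 34122831 and 34125517, lie inside the annotated span of H2-DMa. The result covers these 2 starts only and does not show that H2-DMa lacks the boxes. The promoter of H2-DMb1, the partner chain of H2-DMa, held an X box 95 bases and a Y box 62 bases before its start.

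The deposited Dll1+ matrix held 117230907 unique molecular identifiers (UMIs) and the Dll1- matrix 135960457, and 9685 Dll1+ and 10132 Dll1- cells passed the filters, with medians of 7882 and 9904 UMIs. Mitochondrial UMIs had a median of 5.39% in Dll1+ and 3.54% in Dll1- cells, and 109 barcode sequences occurred in both libraries, 57 of them among the Dll1+ and 61 among the Dll1- cells kept. Named from markers, 7960 Dll1+ and 8637 Dll1- cells were epithelial-like, 332 and 315 belonged to a cluster led by Krt5, 256 and 280 were endothelial-like, 427 and 176 pericyte-like, 332 and 572 fibroblast-like and 22 and 5 macrophage-like, while 356 and 147 stayed unnamed. Levels are given as CPM, the UMIs of a gene per 1000000 UMIs. Epcam, an epithelial surface protein, was at 1149 CPM in Dll1+ and 1399 CPM in Dll1- epithelial-like cells. Their Dll1 level was 54.6 CPM in the Dll1+, against 3.97 CPM in the Dll1- library, in the direction of the labels. In the Krt5-led cells Dll1 was at 88.8 CPM in the Dll1+, against 84.3 CPM in the Dll1- library, with overlapping intervals.

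All levels below are UMI sums of each class in each library, and set to CPM by the total of that class. Cd74, at 60803848 to 60812652 on the plus strand of chromosome 18, was at its highest in the macrophage-like cells, with 9508 CPM in the Dll1+, against 9771 CPM in the Dll1- library. The 22 and 5 macrophage-like cells thus gave like levels in both tumors. Outside them, the order of Cd74 in the Dll1+ library was endothelial-like at 188 CPM (166 to 212), epithelial-like at 146 CPM (144 to 149), Krt5-led at 35.7 CPM (30.3 to 41.8), pericyte-like at 29.8 CPM (23.7 to 36.9) and fibroblast-like at 9.05 CPM (6.02 to 13.1). The intervals of the Krt5-led and pericyte-like cells overlapped, and all other neighbours in this order were apart by more than counting error. The order turned under other settings: endothelial-like cells were below epithelial-like cells when thinned (178.7 and 190.4 CPM) and with no doublets removed (140.3 and 147.6 CPM), and pericyte-like cells were below fibroblast-like cells with a mitochondrial limit of 10% (12.1 and 15.4 CPM). In the Dll1- library Cd74 was at 6.09 CPM (2.63 to 12) in endothelial-like, 1.62 CPM (1.39 to 1.89) in epithelial-like, 1.32 CPM (0.359 to 3.37) in Krt5-led and 1.24 CPM (0.404 to 2.90) in fibroblast-like cells. Pericyte-like cells of that library had 0 Cd74 UMIs, which allows up to 2.77 CPM. There the endothelial-like level stood above the epithelial-like level beyond counting error, and the intervals of the other classes overlapped both neighbours.

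**Figure D1:**
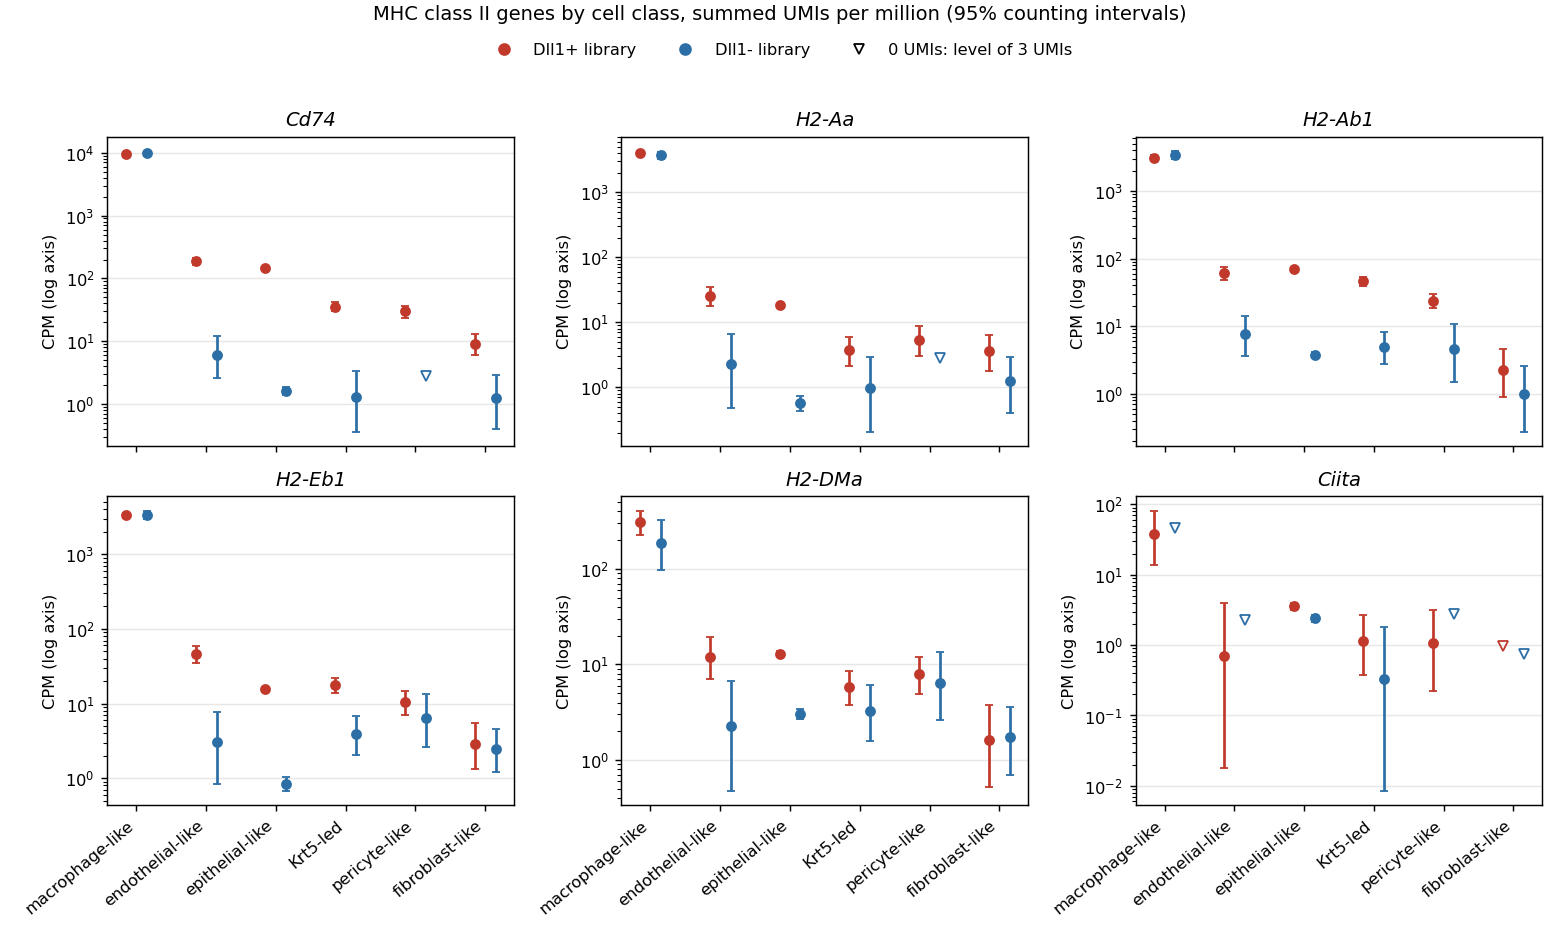
Level of each class II gene in 6 cell classes, as CPM on a log axis, with the Dll1+ library left of the Dll1- library and bars for 95% exact Poisson intervals. Open triangles mark 0 UMIs and stand at the level of 3 UMIs. Cd74, H2-Aa, H2-Ab1 and H2-Eb1 were close to equal in macrophage-like cells of both tumors, and in epithelial-like cells the Dll1+ points lie above the Dll1- points for all 6 genes.

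In epithelial-like cells 5 of the 6 genes were at least 2-fold higher in the Dll1+ than in the Dll1- library on the scale of log2 of CPM plus 1, and none was at least 2-fold lower. Over all 15228 genes measured in these cells 9.11% were higher and 2.37% lower by that fold, and the median log2 ratio was 3.39 over the 6 genes and 0.21 over all genes. With TMM scaling, which brought the median of all genes to 0.01, the 1387 genes higher and 361 lower became 1010 higher and 580 lower.

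Cd74 had 11848 UMIs, or 146 CPM, in Dll1+ and 170 UMIs, or 1.62 CPM, in Dll1- epithelial-like cells. That is a 90.2-fold ratio (77.5 to 105.6). The alpha chain gene H2-Aa had 18.2 CPM (1474 UMIs) in Dll1+ and 0.563 CPM (59 UMIs) in Dll1- cells, 32.3-fold apart (24.9 to 42.7). The intervals of the libraries were far apart for both genes. The beta partner H2-Ab1 had 70.7 CPM (5718 UMIs) in Dll1+ and 3.80 CPM (398 UMIs) in Dll1- cells, an 18.6-fold ratio (16.8 to 20.6). H2-Eb1 had 15.5 CPM (1251 UMIs) in Dll1+ and 0.831 CPM (87 UMIs) in Dll1- cells, also 18.6-fold (14.97 to 23.4). The peptide editor chain H2-DMa differed less, with 12.9 CPM (1043 UMIs) in Dll1+ and 3.04 CPM (318 UMIs) in Dll1- cells, a 4.25-fold ratio (3.74 to 4.83). Ciita, the coactivator, had 3.58 CPM (290 UMIs) in Dll1+ and 2.40 CPM (251 UMIs) in Dll1- cells, a 1.496-fold ratio (1.26 to 1.78). The ratio thus grew smaller from the invariant chain over the 3 presenting chains to the editor and was smallest for the coactivator, and the intervals of H2-Ab1 and H2-Eb1 overlapped.

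**Figure D2:**
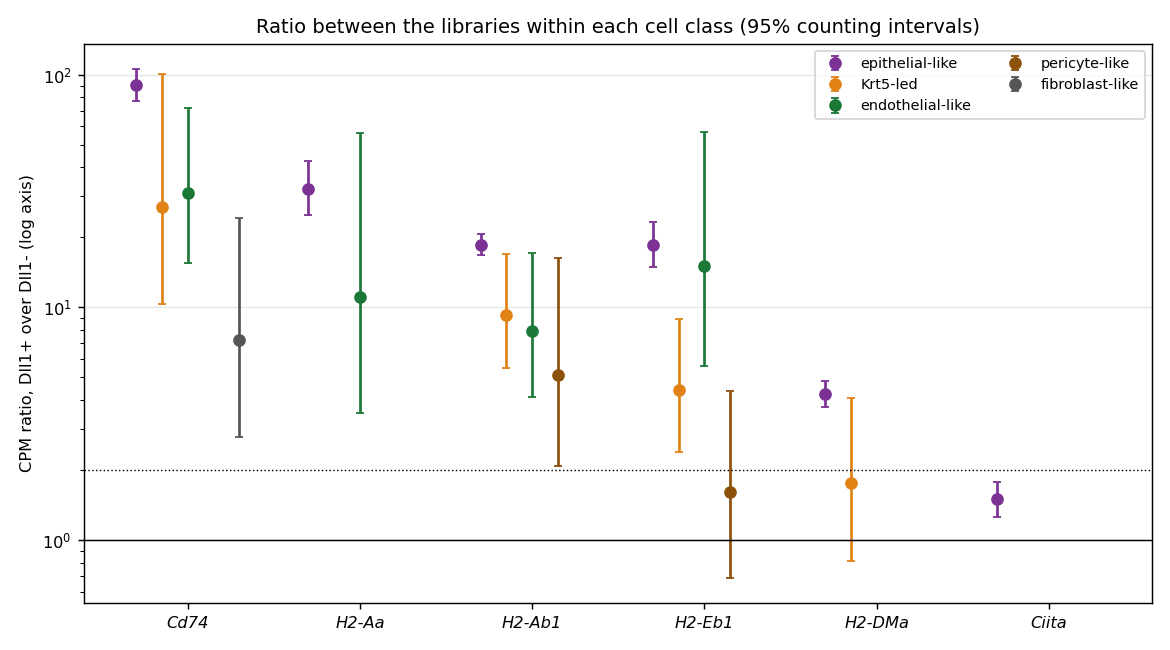
Ratio of CPM in the Dll1+ over the Dll1- library for each class II gene within 5 cell classes, on a log axis, with bars for 95% exact conditional intervals. The solid line marks 1 and the dotted line 2. Points are shown where a class held at least 30 UMIs of the gene over both libraries and neither library was at 0. The epithelial-like points run from 90.2 for Cd74 to 1.496 for Ciita.

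Free RNA in droplets can give UMIs to cells that do not make a transcript, and the fibroblast-like cells, lowest for Cd74 among the classes of the Dll1+ library, were set beside the others for that reason. Their Dll1+ Cd74 level of 9.05 CPM was 15.4 CPM with a mitochondrial limit of 10% and 59.2 CPM with no doublets removed, against 1.41 and 5.15 CPM in the Dll1- library. The Cd74 level of Dll1- epithelial-like cells, 1.62 CPM, lay within the interval of the Dll1- fibroblast-like cells. H2-Ab1 at 3.80 CPM (3.44 to 4.19) stood above their 0.996 CPM (0.271 to 2.55). Ciita at 2.40 CPM (2.11 to 2.71) stood above their 0 UMIs, which allow up to 0.747 CPM. In the Dll1- tumor, H2-Ab1 and Ciita of epithelial-like cells therefore stood above the fibroblast-like level, and Cd74 did not. H2-Ab1 was at 4.94 CPM in Krt5-led, 7.61 CPM in endothelial-like and 4.62 CPM in pericyte-like Dll1- cells. The fibroblast-like cells were thus the lowest reference among these classes for H2-Ab1, and the part of free RNA in its level was not tested.

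Shares of cells with a UMI were also compared after each cell had been thinned to 2000 UMIs, since the median depth of epithelial-like cells was 8004.5 UMIs in Dll1+ and 10688 in Dll1- cells. Cd74 was detected in 23.8% (22.9 to 24.8) of Dll1+ and 1.27% (1.05 to 1.53) of Dll1- epithelial-like cells, and after thinning in 13.8% (13.1 to 14.7) and 0.332% (0.221 to 0.480). The thinning left out 605 Dll1+ and 211 Dll1- cells. In fibroblast-like cells, with medians of 9251 and 6630 UMIs, the shares were 7.23% (4.69 to 10.6) in Dll1+ and 0.699% (0.191 to 1.78) in Dll1- cells, and after thinning 1.25% (0.343 to 3.18) and 0.183% (0.00465 to 1.02). The Dll1+ epithelial-like share therefore stood above the fibroblast-like share at equal depth, and the Dll1- epithelial-like share did not stand above its own. The fibroblast-like cells had been picked for their lowest Dll1+ Cd74 level, which largely fixed the Dll1+ order beforehand. Dll1+ barcodes under 1000 UMIs, kept out of all classes, held more Cd74, 172 CPM (148 to 198), beside 146 CPM for Dll1+ epithelial-like cells. The part of free RNA in the Dll1+ epithelial-like share was not tested. H2-Ab1 after thinning was found in 11.99% (11.3 to 12.8) of Dll1+ and 0.843% (0.659 to 1.06) of Dll1- epithelial-like cells, against 0.313% of Dll1+ and 0% of Dll1- fibroblast-like cells.

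Leukocyte markers were low in epithelial-like cells of both libraries. The 8 general leukocyte genes summed to 6.01 CPM (5.48 to 6.56) in Dll1+ and 9.46 CPM (8.88 to 10.1) in Dll1- epithelial-like cells, against 8769 and 9075 CPM in macrophage-like cells, with none of the 8 at 0. The 8 macrophage genes summed to 12.4 CPM (11.7 to 13.2) in Dll1+, with Adgre1 at 0 UMIs, and to 10.7 CPM (10.1 to 11.4) in Dll1- cells. Their level in macrophage-like cells was 22583 CPM in the Dll1+, against 18521 CPM in the Dll1- library. Neither sum moved as Cd74 did, but single genes differed. Cd52, higher in Dll1- cells, gave 235 of the 486 Dll1+ and 823 of the 991 Dll1- leukocyte UMIs. Ptprc had 10 UMIs in Dll1+ and 2 in Dll1- cells, and Cd53 had 11 and 4. Coro1a, with 24 and 22 UMIs, and Laptm5, with 22 and 21, had overlapping intervals. Lyz2, the lysozyme of macrophages, was at 2.16 CPM (1.85 to 2.51) in Dll1+ and 0.286 CPM (0.193 to 0.409) in Dll1- epithelial-like cells. The part of leukocyte RNA in the Cd74 ratio was not tested. Without the cells holding a UMI of Lyz2 or a C1q gene, a setting chosen after seeing the data, Cd74 was at 147 CPM in Dll1+ and 0.947 CPM in Dll1- cells. The dendritic cell genes summed to 2.63 CPM in Dll1+ and 3.63 CPM in Dll1- cells with Clec9a and Cd209a at 0 in both, and the T or NK cell genes to 1.93 and 1.19 CPM. The B cell genes summed to 3.57 CPM in Dll1+ and 0.735 CPM in Dll1- cells, and 270 of the 289 Dll1+ UMIs came from Pax5, and the part of Pax5 in the result was not tested.

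Levels were also set against those of the macrophage-like cells. In the Dll1+ library the epithelial-like level was 1.54% of the macrophage-like level for Cd74, 2.28% for H2-Ab1, 0.460% for H2-Aa, 0.465% for H2-Eb1 and 4.20% for H2-DMa. It was 0.0241% for Lyz2, 0.0196% for C1qa, 0.0403% for Tyrobp and 0.0411% for Ptprc. Of the 16 leukocyte and macrophage genes, Cd68 at 0.544%, Cd52 at 0.188% and Coro1a at 0.131% were the highest, and Cd68 stood above H2-Aa and H2-Eb1, with intervals that overlap those of both. The ratio of Cd74 to H2-Aa UMIs was 8.04 (7.61 to 8.49) in Dll1+ epithelial-like cells and 2.40 (2.19 to 2.64) in Dll1+ macrophage-like cells. In the Dll1- library it was 2.88 (2.13 to 3.94) in epithelial-like and 2.64 (2.28 to 3.08) in macrophage-like cells, within counting error of each other. The ratio of H2-Ab1 to H2-Aa was 3.88 (3.66 to 4.11) in Dll1+ epithelial-like and 0.782 (0.693 to 0.881) in Dll1+ macrophage-like cells. What sets these ratios was not tested. Leaving out cells with a leukocyte UMI, 343 Dll1+ and 463 Dll1- cells, gave 147 CPM of Cd74 in Dll1+ and 0.992 CPM in Dll1- epithelial-like cells, so the Dll1- level rested in part on such cells and the ratio was not smaller without them.

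**Figure D3:**
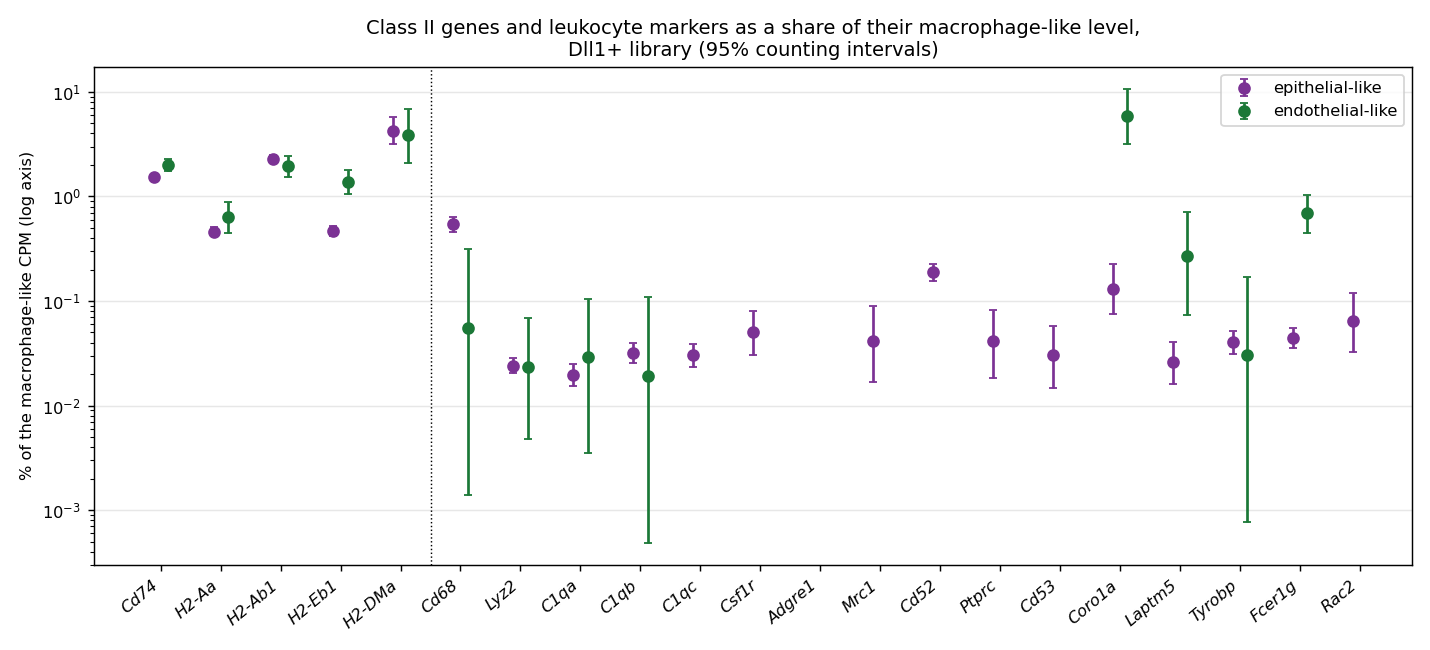
Level of 5 class II genes and of all 16 leukocyte and macrophage genes in Dll1+ epithelial-like and endothelial-like cells, as a percentage of the level of the same gene in Dll1+ macrophage-like cells, on a log axis with 95% exact conditional intervals, with genes at 0 UMIs not drawn. In epithelial-like cells the class II genes left of the dotted line lie between 0.460% and 4.20% and the others between 0.0196% and 0.544%, with Cd68 within the range of the class II genes, and in endothelial-like cells Coro1a at 5.92% and Fcer1g at 0.691% lie high.

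The epithelial-like cells of the tumors fell into sub-states that were largely separate, and Cd74 was not even across them. Sub-state E1, led by Prpmp5, Tmem213 and Atp6v0a4, held 5247 Dll1+ and 2 Dll1- cells, and E3, led by Pdpn and Rbp7, held 969 Dll1+ and 0 Dll1- cells. E0, led by Rec8 and the milk genes Lalba and Wap, held 1243 Dll1+ and 4986 Dll1- cells, E2, led by Fxyd5 and Fermt1, 215 and 3123, and the mitotic E4, led by Nusap1 and Ube2c, 116 and 510. E5, led by Spp1, held 157 Dll1+ and 4 Dll1- cells. The class II genes were kept out of the genes used for clustering. Cd74 was among the 10 leading genes of E1, ranked against the other epithelial-like cells of both libraries. E1 was nearly all Dll1+ and Cd74 was picked as higher in the Dll1+ tumor, so this lead in part restates that choice. Of the Dll1+ epithelial-like cells E1 held 65.9%, and of their Cd74 UMIs 88.5%.

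Among Dll1+ cells Cd74 was at 259 CPM (254 to 264) in E1, 125 CPM (108 to 143) in E5, 33.6 CPM (30.8 to 36.6) in E0, 30.9 CPM (28.4 to 33.5) in E3, 17.1 CPM (12.5 to 22.9) in E4 and 14.7 CPM (10.2 to 20.6) in E2. E1 and E5 stood apart from each other and from the rest, E0 and E3 overlapped, and so did E4 and E2. H2-Ab1 had another order, with 109 CPM in E1, 55.2 CPM in E5, 41.6 CPM in E3, 35.6 CPM in E2, 21.3 CPM in E4 and 20.8 CPM in E0. The ratio of Cd74 to H2-Ab1 UMIs was accordingly 2.38 (2.29 to 2.46) in E1 and 2.26 (1.74 to 2.94) in E5, and 0.741 (0.663 to 0.828) in E3. In E3 and E2 the beta chain was thus counted more often than the invariant chain, and in E1 and E5 less often. H2-DMa was at 18.6 CPM in E1, 10.0 CPM in E3 and between 2.17 and 7.06 CPM in the other sub-states.

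In 3 sub-states both libraries held 50 cells or more, so that the tumors could be compared between like cells. In E0, Cd74 was at 33.6 CPM in Dll1+ and 1.61 CPM in Dll1- cells, a 20.8-fold ratio (16.8 to 26.0), where 2.29% of all measured genes were at least 2-fold higher, with 1.24% lower by that fold. In E2 it was at 14.7 CPM in Dll1+ and 1.95 CPM in Dll1- cells, a 7.54-fold ratio (4.80 to 11.7), beside 5.19% of genes higher and 1.83% lower. In E4 it was at 17.1 CPM in Dll1+ and 0.531 CPM in Dll1- cells, a 32.3-fold ratio (13.7 to 92.6), beside 1.8% of genes higher and 2.21% lower. The Dll1+ cells were higher in each of the 3, and each ratio but that of E4 lay below the 90.2-fold of the whole class beyond counting error. In E2 and E4 the interval of the Dll1+ Cd74 level overlapped that of the Dll1+ fibroblast-like cells, at 9.05 CPM. The Cd74 ratio of fibroblast-like cells was 7.27-fold (2.77 to 24.1), and the part of free RNA in the E2 and E4 ratios was not tested. H2-Ab1 was 6.89-fold (5.75 to 8.28) apart in E0, 5.83-fold (4.44 to 7.61) in E2 and 11.5-fold (6.84 to 19.96) in E4, higher in Dll1+ cells. H2-Aa was 8.58-fold (5.71 to 13.1) and H2-Eb1 8.44-fold (5.93 to 12.2) higher in Dll1+ cells of E0, and in E2 both had under 5 Dll1+ UMIs with intervals that include 1. H2-DMa had 5.08 CPM in Dll1+ and 3.13 CPM in Dll1- cells of E0, 1.62-fold (1.23 to 2.11), and its intervals included 1 in E2 and E4.

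Ciita differed in E0, with 4.13 CPM in Dll1+ and 2.83 CPM in Dll1- cells, 1.46-fold (1.08 to 1.95). In E4 it had 2.66 CPM in Dll1+ and 3.71 CPM in Dll1- cells, 0.717-fold (0.272 to 1.61). In E2 it had 1 UMI in Dll1+ and 30 UMIs in Dll1- cells, a ratio of 0.436 (0.0107 to 2.62). No direction for Ciita could be read from E2 and E4 at this depth. With the 3 sub-states weighted alike, a setting chosen after seeing the data, Ciita was at 2.41 CPM in Dll1+ and 2.51 CPM in Dll1- cells, which turned its direction, and H2-DMa was no longer 2-fold apart.

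**Figure D4:**
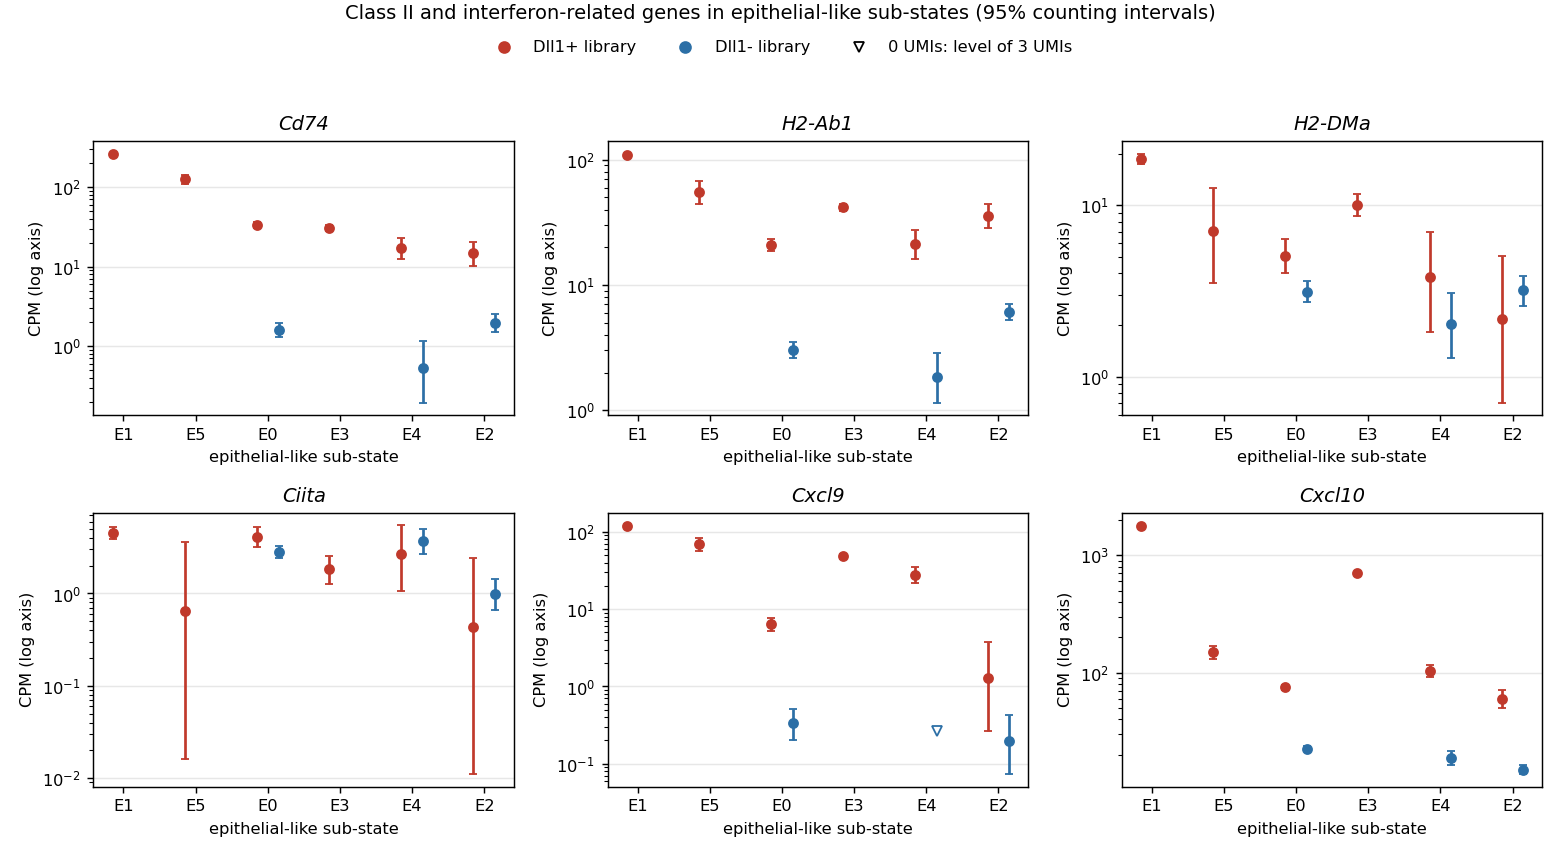
Level of 4 class II genes, of Cxcl9 and of Cxcl10 in the epithelial-like sub-states, as CPM on a log axis, with the Dll1+ library left of the Dll1- library and bars for 95% exact Poisson intervals. Groups under 50 cells are not drawn, and the open triangle marks 0 UMIs at the level of 3 UMIs. Cd74, H2-Ab1 and Cxcl10 are higher in Dll1+ cells of E0, E4 and E2, and Cxcl9 in E0 and E4, while its intervals overlap in E2.

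A cluster of the first round of clustering, led by the interferon-induced genes Ifit1bl1, Cmpk2 and Rsad2, held 25 Dll1+ and 171 Dll1- epithelial-like cells. Irf1, an interferon-induced transcription factor, was at 331 CPM (275 to 394) in its Dll1+ and 337 CPM (314 to 361) in its Dll1- cells. Cd74 had 113 UMIs, or 299 CPM (247 to 360), in the Dll1+ cells and 0 UMIs in the Dll1- cells, which allows up to 1.29 CPM. The Irf1 levels of these cells thus overlapped while Cd74 differed, and the Dll1+ cells were fewer than the sub-state comparisons required. H2-Ab1 was at 82.1 CPM (55.8 to 116) in the Dll1+ and 2.58 CPM (0.947 to 5.62) in the Dll1- cells of this cluster. Ciita had 3 UMIs in the Dll1+ and 10 UMIs in the Dll1- cells, at 7.94 CPM (1.64 to 23.2) and 4.30 CPM (2.06 to 7.91). Cxcl9, a chemokine induced by interferon-gamma, had 62 UMIs in the Dll1+ and 0 UMIs in the Dll1- cells. Cd274, which encodes the checkpoint ligand PD-L1, was at 31.8 CPM (16.4 to 55.5) in the Dll1+ and 64.1 CPM (54.2 to 75.2) in the Dll1- cells. Since Cxcl9 differed, the overlap in Irf1 does not match these cells for interferon-gamma signal. The part of that signal in the Cd74 difference was not tested.

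Cd74 was spread unevenly over single Dll1+ epithelial-like cells. After thinning, 86.2% had 0 Cd74 UMIs, 6.72% had 1, 2.65% had 2 and 4.47% had 3 or more, with a highest value of 43 and a variance of 6.09 times the mean. Counting alone gives a variance of about 1 times the mean. In Dll1+ fibroblast-like cells 4 of 319 cells had a Cd74 UMI, and no cell had more than 1. Their variance of 0.991 times the mean was fixed near 1 by these values, so it gives no contrast to the epithelial-like cells. In E1 alone the variance was still 6.11 times the mean. At least 3 of the 6 genes were found together in 231 Dll1+ cells (3.14%) and in 2 Dll1- cells (0.0237%) of the epithelial-like class.

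Cells with a Cd74 UMI also held the other class II genes more often. Of the 1018 thinned Dll1+ epithelial-like cells with Cd74, 35.9% also had H2-Ab1, against 8.16% of the 6337 cells without it. For H2-Aa the shares were 19.5% (17.2 to 22.1) with and 1.03% without Cd74, for H2-Eb1 16.2% and 0.757%, for H2-DMa 9.82% and 1.72% and for Ciita 2.26% (1.44 to 3.37) and 0.505% (0.346 to 0.712). The 5 genes were therefore each more frequent in the cells with Cd74 beyond counting error. Within E1 alone the shares were 20.5% with and 1.33% without Cd74 for H2-Aa, and 2.30% with and 0.496% without for Ciita. Of all 16 leukocyte and macrophage markers, at least 1 was seen in 3.63% (2.57 to 4.98) of cells with and 3.68% (3.23 to 4.17) of cells without Cd74. Without Cd68 and Cd52, which had the most UMIs of these in Dll1+ epithelial-like cells, the shares were 2.85% (1.92 to 4.07) with and 1.81% (1.501 to 2.17) without Cd74. Detection of Dll1 did not go with that of Cd74 in the whole class, where Cd74 was found in 14.1% of thinned Dll1+ epithelial-like cells with a Dll1 UMI and in 13.8% of those without. Within E1 it was found in 15.5% (12.9 to 18.4) of 716 cells with and 19.9% (18.7 to 21.2) of 4028 cells without a Dll1 UMI.

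**Figure D5:**
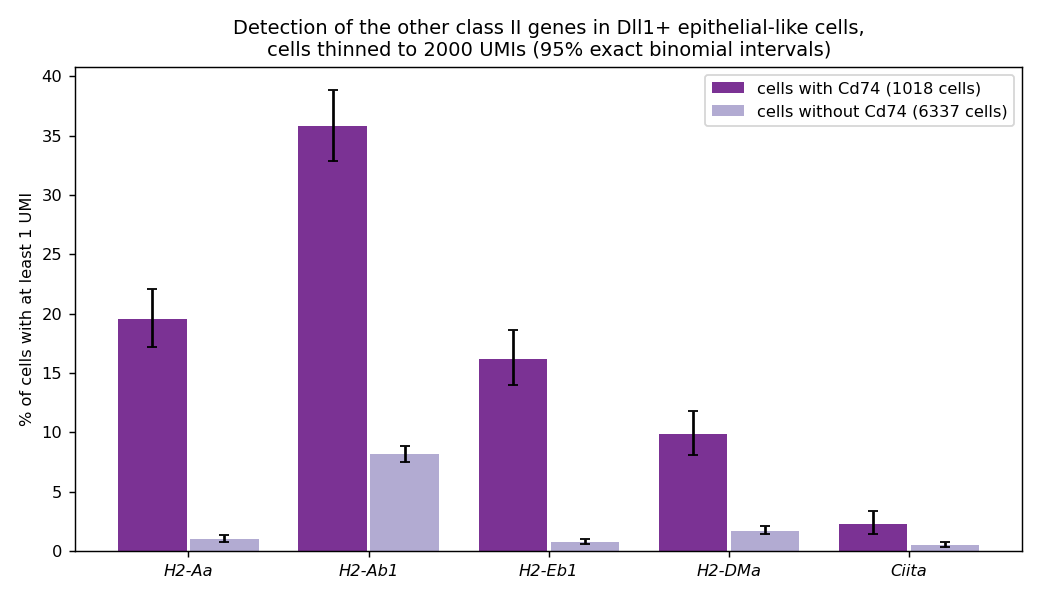
Share of Dll1+ epithelial-like cells, thinned to 2000 UMIs, with at least 1 UMI of each other class II gene, for the 1018 cells with and the 6337 cells without a Cd74 UMI. Bars start at 0 and carry 95% exact binomial intervals. All 5 genes are more frequent in cells with Cd74, from 35.9% against 8.16% for H2-Ab1 to 2.26% against 0.505% for Ciita.

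Endothelial-like cells, marked by Pecam1 at 971 CPM in the Dll1+, against 906 CPM in the Dll1- library, had 4 of 4 measured members at least 2-fold higher in the Dll1+ library, where 2.41% of all genes were, with 0.976% lower by that fold. Cd74 was at 188 CPM (268 UMIs) in Dll1+ and 6.09 CPM (8 UMIs) in Dll1- cells, a 30.9-fold ratio (15.5 to 72.4). H2-Eb1 was at 45.7 CPM (65 UMIs) in Dll1+ and 3.05 CPM (4 UMIs) in Dll1- cells, 15-fold (5.59 to 56.7). H2-Ab1 was 7.94-fold (4.12 to 17.1) and H2-Aa 11.1-fold (3.50 to 56.2) higher in the Dll1+ cells. These endothelial levels rested on few cells, since 31 of 256 Dll1+ cells had any Cd74 UMI, and after thinning 5.43% had 3 or more while 91.9% had 0. Lyz2 was at 0.0235%, Cd74 at 1.98% and Coro1a at 5.92% (3.21 to 10.6) of the Dll1+ macrophage-like level, and the part of Coro1a in the result was not tested. Ptprc, Csf1r and Adgre1 had 0 UMIs in Dll1+ cells, and Epcam was at 41.5 CPM in Dll1+ and 18.3 CPM in Dll1- endothelial-like cells, against 1149 and 1399 CPM in epithelial-like cells. Ciita had 1 UMI in the Dll1+ and 0 UMIs in the Dll1- endothelial-like cells.

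In the Krt5-led cells 3 of 4 measured members were at least 2-fold higher in the Dll1+ library, beside 6.26% of all genes, with 3.1% lower by that fold. Cd74 was at 35.7 CPM (155 UMIs) in Dll1+ and 1.32 CPM (4 UMIs) in Dll1- cells, a 27.1-fold ratio (10.4 to 100.9). H2-Ab1 was at 45.9 CPM in Dll1+ and 4.94 CPM in Dll1- cells, 9.29-fold (5.50 to 16.9), and H2-Eb1 at 17.5 and 3.95 CPM, 4.44-fold (2.40 to 8.96). Lyz2 had 12 UMIs in Dll1+ and 1 UMI in Dll1- Krt5-led cells, at 0.0308% of the macrophage-like level in the Dll1+ cells, against 0.376% for Cd74. As in E3, H2-Ab1 had more UMIs than Cd74, with a ratio of Cd74 to H2-Ab1 of 0.779 (0.627 to 0.966) in the Dll1+ cells. The ratio of H2-DMa was 1.75 (0.812 to 4.09), with 25 Dll1+ and 10 Dll1- UMIs. Dll1 did not differ beyond counting error in this class, as given above.

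Pericyte-like cells had 2 of 3 measured members at least 2-fold higher in the Dll1+ library, beside 8.0% of all genes, with 0.991% lower by that fold, but the Cd74 UMIs lay mainly in a small cluster. Cd74 had 83 UMIs in Dll1+ and 0 UMIs in Dll1- pericyte-like cells, which is at least 10.7-fold higher when the Dll1- library is set to 3 UMIs. Of the 83, 63 came from 61 Dll1+ cells at 375 CPM in which Epcam was at 643 CPM and Krt8 at 2120 CPM beside Rgs5 at 1745 CPM. In the other main cluster, of 315 Dll1+ and 174 Dll1- cells with Rgs5 at 5216 and 4375 CPM, Cd74 had 9 UMIs in Dll1+ and 0 UMIs in Dll1- cells. Leukocyte genes moved with Cd74 in the pericyte-like cells, with a sum of 16.9 CPM (12.4 to 22.4) in Dll1+ and 3.70 CPM (1.01 to 9.47) in Dll1- cells, of which Cd53 had 25 and 0 UMIs while Ptprc had 0 in both. The macrophage genes summed to 11.1 CPM (7.56 to 15.8) in Dll1+ and 5.55 CPM (2.04 to 12.1) in Dll1- cells, with Lyz2 at 12 and 0 UMIs. Without cells holding a leukocyte UMI, Cd74 was at 33.5 CPM in Dll1+ and 0 CPM in Dll1- cells, and the part of the leukocyte, macrophage and epithelial RNA in the ratio was not tested. H2-Ab1 was at 12.7 CPM (8.54 to 18.3) in Dll1+ and 4.66 CPM (1.51 to 10.9) in Dll1- cells of the larger cluster, with overlapping intervals.

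Fibroblast-like cells had 1 measured member, Cd74, with 28 UMIs (9.05 CPM) in Dll1+ and 5 UMIs (1.24 CPM) in Dll1- cells, a 7.27-fold ratio (2.77 to 24.1) in a class where 3.06% of genes were higher and 1.43% lower by 2-fold or more. The other presenting chains were low in count, and the intervals of their ratios included 1, with 11 and 5 UMIs for H2-Aa (2.86-fold, 0.915 to 10.5), 7 and 4 for H2-Ab1 and 9 and 10 for H2-Eb1 in Dll1+ and Dll1- cells. Ciita had 0 UMIs in both. Lyz2 moved with Cd74 here, with 16 UMIs in Dll1+ and 4 UMIs in Dll1- fibroblast-like cells, and the 8 macrophage genes summed to 12.6 CPM (8.97 to 17.2) in Dll1+ and 3.73 CPM (2.09 to 6.16) in Dll1- cells, with Adgre1 and Mrc1 at 0 in both. Their part in the fibroblast-like ratio was not tested.

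Among the other parts of the pathway in epithelial-like cells, Ctss differed more than H2-DMa and Ciita, and the other measured genes of the promoter, chain and processing lists were not 2-fold apart. Of the 7 promoter factors, Rfx5, Rfxap, Rfxank, Nfya, Nfyb, Nfyc and Creb1, none was 2-fold apart, and their median log2 ratio was 0.29. Over all genes measured in this class 9.11% were higher and 2.37% lower by that fold, with a median of 0.21. None among 7 lies near these shares and says little about the factors. Rfx5, the DNA-binding subunit of RFX, was at 13.7 CPM in Dll1+ and 8.99 CPM in Dll1- cells, 1.52-fold (1.39 to 1.66). H2-DMb1 was at 15.02 CPM in Dll1+ and 9.13 CPM in Dll1- cells, 1.65-fold (1.51 to 1.79). It was the only one of the 5 other class II chains found in the matrices with at least 30 UMIs. Of 6 processing genes, Ctss, the protease that cuts the invariant chain, was at least 2-fold higher, at 10.2 CPM in Dll1+ and 1.36 CPM in Dll1- cells. That is a 7.50-fold ratio (6.27 to 9.03). Ifi30, a thiol reductase of endosomes, was at 186 CPM in Dll1+ and 96.6 CPM in Dll1- cells, and Ctsl, Ctsb, Ctsd and Lgmn lay nearer to 1. Ctss in Dll1+ cells stood at 0.362% of its macrophage-like level.

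Of 13 genes known to be induced by interferon-gamma, 9 were at least 2-fold higher in Dll1+ epithelial-like cells and none was at least 2-fold lower, with a median log2 ratio of 1.71. Over all genes measured in this class 9.11% were higher and 2.37% lower by that fold, with a median of 0.21. Cxcl9 was at 73.8 CPM in Dll1+ and 0.258 CPM in Dll1- cells, Cxcl10, a chemokine of the same receptor, at 1076 and 19.9 CPM, and Gbp5, a guanylate-binding protein, at 27.6 and 1.95 CPM. Igtp, Irgm1, Irgm2 and Iigp1, immunity-related GTPases, were 2.56-fold to 4.94-fold higher, Nlrc5, the coactivator of class I genes, 2.10-fold (1.96 to 2.24), and Ubd had 193 UMIs in Dll1+ and 4 UMIs in Dll1- cells. Gbp2, Gbp3, Psmb8 and Psmb9 were not 2-fold apart, and Gbp3 was at 93.99 CPM in Dll1+ and 116 CPM in Dll1- cells. Of the receptor and signal genes, Ifngr1, a chain of the interferon-gamma receptor, was at 27.8 CPM in Dll1+ and 16.4 CPM in Dll1- cells, 1.69-fold (1.59 to 1.80), and Irf1 at 235 and 180 CPM, 1.30-fold (1.28 to 1.33). Ifng itself had 0 UMIs in every class of both libraries, in cells sorted to be free of leukocytes.

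Of the costimulation genes, Cd274 was at 9.52 CPM in Dll1+ and 3.44 CPM in Dll1- epithelial-like cells, 2.77-fold (2.44 to 3.15). Cd80 had 1 UMI in each library, and Cd86 had 4 UMIs in Dll1+ and 1 UMI in Dll1- cells. The classical costimulatory ligands were therefore close to absent from the counts of the cells that held class II transcripts. Cd40 had 51 UMIs in Dll1+ and 13 UMIs in Dll1- epithelial-like cells, and in endothelial-like cells it was lower in the Dll1+ library, at 19.0 CPM against 51.0 CPM in the Dll1- library, 0.372-fold (0.229 to 0.590). Of the other inducers and repressors, Prdm1, a repressor of Ciita in plasma cells, was at 14.2 CPM in Dll1+ and 3.01 CPM in Dll1- epithelial-like cells, 4.73-fold (4.17 to 5.38). In E1, where Cd74 was at its highest, Prdm1 was at 24.2 CPM.

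In the other classes the interferon-gamma list had 6 of 11 measured genes at least 2-fold higher in Dll1+ Krt5-led cells, 6 of 13 in endothelial-like, 6 of 12 in pericyte-like and 1 of 11 in fibroblast-like cells, with none at least 2-fold lower on the scale with the pseudocount. Over all genes measured in these classes, in the same order, 6.26%, 2.41%, 8.0% and 3.06% were higher by that fold. By the same fold 3.1%, 0.976%, 0.991% and 1.43% were lower. Without the pseudocount Cxcl10 lay just past that fold in fibroblast-like cells, at 99.6 CPM in Dll1+ and 199.6 CPM in Dll1- cells, 0.499-fold (0.436 to 0.570). Iigp1 was at 115 CPM in Dll1+ and 14.5 CPM in Dll1- Krt5-led cells, 7.93-fold (5.82 to 11.1), and Cxcl9 was at 597 CPM in Dll1+ and 71.6 CPM in Dll1- endothelial-like cells, 8.35-fold (6.74 to 10.4). In Krt5-led cells Cxcl9 did not follow, at 22.8 CPM in Dll1+ and 28.3 CPM in Dll1- cells. H2-DMb1 was at 18.9 CPM in Dll1+ and 5.92 CPM in Dll1- Krt5-led cells, 3.19-fold (1.90 to 5.65). The members and the interferon genes were picked with results of these libraries known, so these counts are a description.

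Over the 10 class-by-library sums other than macrophage-like cells, the 8 genes outside the 6 members whose log2 level was most like that of Cd74, out of 8979 with at least 20 CPM in one of them, were Irf3 (Pearson r = 0.949), Arhgef28 (0.903), Ncapd2, Pogz, Xpo4, Nfkb1, Trrap and Cpsf7 (0.876). Over the same points r was 0.972 for H2-Aa, 0.887 for H2-Ab1, 0.809 for H2-Eb1, 0.696 for H2-DMa and 0.534 for Ciita. The coefficients were thus higher for the presenting chains than for the editor and the coactivator. Outside epithelial-like cells Ciita had 5 UMIs or fewer in each sum, H2-DMa 25 or fewer and H2-Aa 36 or fewer. Depth therefore limits these coefficients, and their order was not tested. Over the 9 sub-state sums with at least 50 cells the most like of 7632 genes, members again left out, were Kcne3 (0.986), Sorl1, Pdzd2, Vipr1, Dock9, Srcap, Gm4951 and Dhrs3 (0.956). All were highest in E1, as Cd74 was, which the ranking by likeness to Cd74 largely fixes. There r was 0.964 for H2-Aa, 0.957 for H2-Ab1, 0.961 for H2-Eb1, 0.832 for H2-DMa and 0.00475 for Ciita. Ciita had 1 UMI each in Dll1+ cells of E2 and E5 and 7 UMIs in those of E4. Its coefficient is therefore limited by depth, and no lack of a link with Cd74 can be read from it. The points share their library, depth and clustering, so these coefficients describe them and are not tested.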

How the data were processed

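RNA of single cells was read with 10x Single Cell v3 chemistry in 1 Dll1+ and 1 Dll1- library. The authors deposited matrices of UMI counts per gene and barcode, per the file headers from Cell Ranger 4.0.0. The genome was mm10 per the submitters' processing notes, and no annotation release was stated in the texts used here. No barcode had under 500 UMIs.

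Barcodes were kept from 1000 UMIs and 500 genes upward, with a mitochondrial limit of 20%. The share of each library with the highest simulated-doublet scores was removed, 896 Dll1+ and 989 Dll1- barcodes. Cells were clustered with scanpy 1.11.5 and leidenalg 0.10.2 on 2000 variable genes, 30 components and 15 neighbours, with 12 class II genes left out, and classes were named from marker lists. The naming rule was completed after the clusters had been seen.

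Counts were summed per class and library and given as CPM. A gene was measured in a class with at least 30 UMIs over both libraries, and log2 ratios used a pseudocount of 1 CPM. Levels have exact Poisson, shares exact Clopper-Pearson and ratios exact conditional binomial intervals of 95%, for counting error only; a count of 0 is set to 3 UMIs per library as its limit. With 1 library per group no test between groups was possible, and depth beyond these intervals does not stand in for a second tumor. Cells were thinned to 2000 UMIs to compare shares. GENCODE M21 held 99.6% of the 32285 IDs.

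The members and lists were chosen with earlier results of these data known. The genes named as most like Cd74 are, members left out, the 8 highest by Pearson r of log2 levels among those with at least 20 CPM in a class or sub-state. The summing and ratio steps were tested on simulated data. Alternatives were 13 settings in all. Some genes of the lists are not reported here.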

Additional observations from a re-analysis of the deposited data

Results flagged for a closer look

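Barcodes under 1000 UMIs, 1471 in the Dll1+ and 1169 in the Dll1- library, entered none of the class sums or their comparisons. In them Cd74 was at 172 CPM (148 to 198) in the Dll1+, against 66.3 CPM (50.2 to 85.8) in the Dll1- library, which drew attention because the Dll1+ level stood above the Dll1- level. H2-Ab1 was at 67.5 CPM in the Dll1+, against 34.9 CPM in the Dll1- barcodes, and H2-Eb1 at 44.4 and 19.8 CPM. Lyz2 moved with them, at 70.2 CPM in the Dll1+, against 17.4 CPM in the Dll1- barcodes, and its part was not tested.

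The 356 Dll1+ and 147 Dll1- cells that stayed unnamed were also outside the comparisons. Cd74 was at 69.6 CPM in the Dll1+, against 20.2 CPM in the Dll1- unnamed cells, and H2-Ab1 at 101 and 4.05 CPM. H2-Aa was at 7.89 CPM in the Dll1+, against 0.81 CPM in the Dll1- cells, and H2-Eb1 at 8.96 and 0.81 CPM.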

How the results depend on the processing

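No paired analysis was possible because the groups hold 1 library each. With 1 tumor per group, no setting replaces a second one. The log2 ratio of Cd74 in epithelial-like cells, 5.81, was 5.6 with TMM factors, 6.02 with thinned cells, 6.22 without cells holding a leukocyte UMI, 6.25 without cells holding a Lyz2 or C1q UMI, 6.65 with the fibroblast-like level subtracted, 3.75 with a pseudocount of 10 CPM and 3.27 with shared sub-states weighted alike (21.8 CPM in Dll1+ and 1.37 CPM in Dll1- cells). The median over the 6 genes, 3.39, was 3.77, 3.64, 3.66, 3.86, 1.33 and 1.62 with thinning, leukocyte cells out, Lyz2 or C1q cells out, fibroblast level subtracted, a pseudocount of 10 CPM and shared sub-states weighted alike. The 1748 genes at least 2-fold apart became 521 with a pseudocount of 10 CPM. That pseudocount also ended the 2-fold calls of H2-DMa in epithelial-like (0.81), Cd74 in fibroblast-like (0.76) and H2-Eb1 in Krt5-led cells (0.98). Ciita in epithelial-like cells turned to -0.04, against 0.43, with shared sub-states weighted alike, and H2-DMa moved to 0.31 there, against 1.78; the cause was not tested. The Lyz2 or C1q, fibroblast-level and shared sub-state settings were chosen after seeing the data. Of the 223 log2 values, 222 stayed above 0. Depth limits Ciita in the Krt5-led, endothelial-like, pericyte-like and fibroblast-like cells, with 5 UMIs or fewer per library. It also limits Ciita in Dll1+ cells of E2 and E5, with 1 UMI each, and of E4, with 7 UMIs.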
